A study of Mus musculus with 6 samples.

Results

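The distal part of the forelimb bud of embryos exposed to retinoic acid (RA) was compared with the proximal part of the control bud, to ask how far RA brings distal tissue to the normal proximal transcript level. The 2 arrays compared were chosen by their labels out of 6 in the series, 1 for each part in each of 3 conditions. All embryos were of the CD1 strain at E10.5. The RA arrays were labelled wild type, and the dams had been gavaged with 100 mg/kg all-trans RA at E10.25. The control arrays were untreated, described as wild type but labelled Ring1A-/- in the genotype field and called Ring1A-KO in the series design. The proximal control bud therefore differs from the distal RA bud in part, RA exposure and genotype label together, and these cannot be told apart here. The remaining pair, used only to choose genes, came from untreated embryos labelled Prx1-Cre; Ring1A-/-; Ring1Bfl/fl (dKO), in which the Cre driver acts in limb mesenchyme. The labels do not say how many embryos went into an array. With 1 array a group there is no replicate, so the differences below carry no error and no p-value.

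The early limb bud is patterned by opposing signals. RA made in the trunk marks the proximal bud, where the homeodomain genes Meis1 and Meis2 are active. Fibroblast growth factors from the apical ectodermal ridge, the epithelial rim at the tip, maintain the distal mesenchyme, which degrades RA with the enzyme CYP26B1. RA acts through nuclear receptors (RARs paired with RXRs) that bind direct repeats of a short motif, and excess RA proximalises limb tissue in several vertebrates.

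Values are MAS5 signals on a linear scale. A signal below the median of its array was set to that median, the floor, and a fold against a floored value is given as "at least". The floors were 64.0 on the proximal control, 59.5 on the distal control and 68.2 on the distal RA array. Of 18193 genes on the array, 11357 were above the floor on the distal RA or the proximal control array. The labelled tissue was checked on its own genes: Tbx5, the forelimb identity gene, had a signal of 1450 in the proximal control and 1094 in the distal RA bud, while Pitx1, a hindlimb gene, was at the floor on both. Sex-linked RNAs separated the arrays: Xist, expressed from the inactive X chromosome, had a signal of 3688 in the proximal control and 29.5 in the distal RA bud, and the Y-linked Eif2s3y 6.49 and 3064. The middle probe set of the BioB spike-in read 1343 on the proximal control and 165 on the distal RA array, whereas the GAPDH 3'/5' ratio was 1.39 on both. The part of these differences in the results was not tested.

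In all, 250 genes were 2-fold or more higher in the distal RA bud than in the proximal control bud, which is 2.20% of those measured, and 314 were lower, which is 2.76%. After each array was divided by its median the split was 195 higher and 403 lower. Between the control parts 159 genes were higher distally (1.40%) and 154 lower (1.35%) among 11391. The median absolute log2 difference from the proximal control was 0.22 for the distal RA bud and 0.12 for the distal control. Between the distal RA bud and the distal control it was also 0.22. Over all genes the RA array thus differed from either control part by more than these differed from each other. These values cannot show how near RA brought distal tissue to the proximal level. Which genes came closer is described below. The only repeated measurement is the set of probes for 1 gene: over 5324 genes with several probe sets above the floor, their log2 differences had a median SD of 0.22. Of the 564 genes at 2-fold in either direction (4.97%), 201 had several probe sets, of which 174 had all the others in the same direction and 54 had all the others at 2-fold as well.

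**Figure D1:**
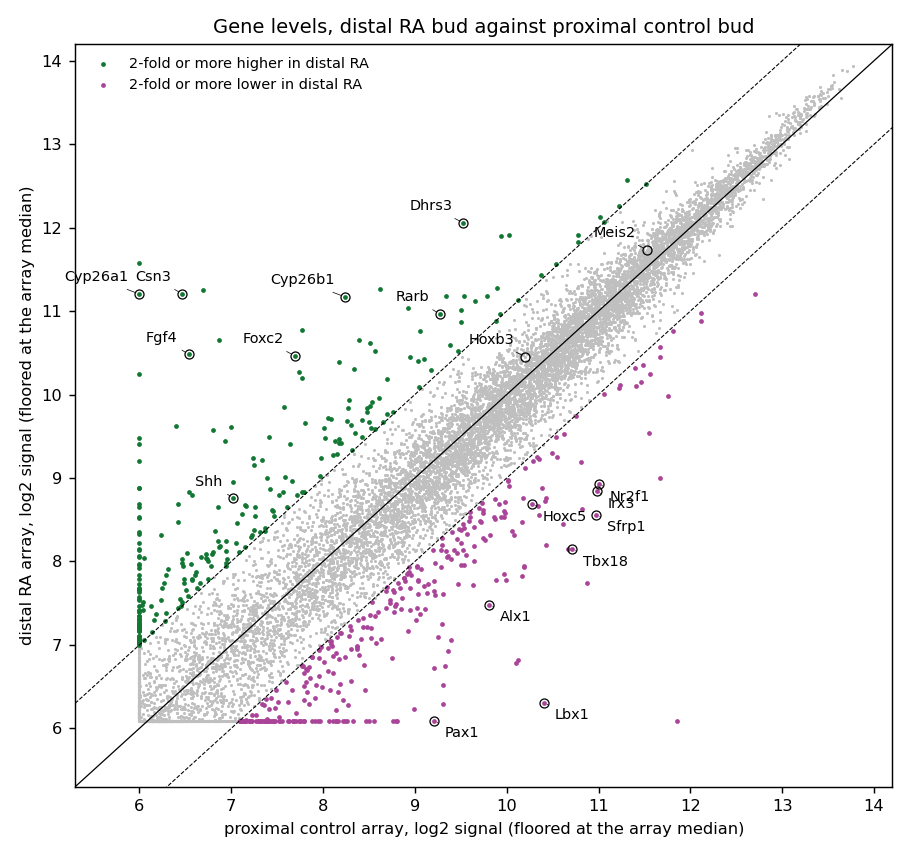
Log2 signal of each measured gene in the proximal control bud (x axis) and the distal RA bud (y axis), 1 array each, with signals below the array median set to that median. Dashed lines mark 2-fold: 250 genes lie above them (green) and 314 below (purple), with RA-degrading enzymes and Fgf4 far above, Lbx1 and Pax1 far below, and Meis2 and Hoxb3 near the diagonal.

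Cyp26a1, Cyp26b1 and Dhrs3, which remove RA or its precursor, were far above the proximal level, while most other retinoid turnover genes were not. Of 15 listed genes of retinoid synthesis, transport and breakdown, 13 were on the array and 9 measured, of which 3 were higher, 1 lower and 5 within 2-fold, with a median log2 difference of 0.28 against -0.03 over all genes. Cyp26a1, an RA-degrading enzyme, had a signal of 29.3 in the proximal control, 64.8 in the distal control and 2358 in the distal RA bud, at least 36.9-fold above the proximal control. Cyp26b1, the degrading enzyme of the distal bud, had signals of 302 in the proximal control, 780 in the distal control and 2301 in the distal RA bud. It was 7.61-fold above the proximal level although the untreated distal bud already exceeded that level, so the RA bud moved away from the proximal state for this gene. Dhrs3, a retinaldehyde reductase, had signals of 738, 586 and 4261 in the same order, 5.78-fold above the proximal control. Stra6, a retinol transporter, had signals of 494, 470 and 959 and was just under 2-fold (log2 0.96), but just past it after quantile normalization (1.01). The cytoplasmic RA-binding proteins Crabp1 and Crabp2 did not follow, with differences of 0.11 and 0.07 on the log2 scale. The retinaldehyde dehydrogenases Aldh1a1, Aldh1a2 and Aldh1a3 were at the floor on both arrays, and Aldh1a7, a related gene, was at least 2.37-fold lower.

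Among receptors and cofactors, 2 of 8 measured genes were higher and 1 was lower. Rarb, an RA receptor and itself an RA target, had a signal of 617 in the proximal control, 117 in the distal control and 2000 in the distal RA bud. It was 17.1-fold above the distal control and overshot the proximal control 3.24-fold. Nrip1, a corepressor of nuclear receptors, had signals of 953, 836 and 2489, and all 5 of its probe sets above the floor were 2-fold or more higher. Nr2f2, an orphan receptor of the COUP-TF family, had signals of 1995, 1208 and 2358 and thus lay within 2-fold of the proximal control, although its probe sets ranged from -0.22 to 0.57. Its relative Nr2f1 had signals of 2050, 388 and 486 and stayed 4.22-fold below it. The untreated distal bud was already within 2-fold of the proximal control for Nr2f2 (log2 -0.72) and not for Nr2f1 (-2.40).

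The 250 bases before each annotated start were searched on both strands for a direct repeat with 5 bases between its hexamers, the spacing of classical RA response elements. Each hexamer could be AGGTCA, the consensus of these receptors, or the close variant AGTTCA, or else GGGTCA as the next variant searched, or lastly GGTTCA, and the members of a pair could differ. Such a repeat was in 29 of 32851 windows (0.0883%) and in 5 of 9233 measured genes with a window. Of 182 higher genes with a window 2 held it, Cyp26a1 and Rarb, and of 245 lower genes 0 did. In Cyp26a1 and Rarb every hexamer is the variant AGTTCA or GGTTCA. The counts therefore depend on admitting these variants and are a description. The other measured genes with a repeat were Blvrb, Hbb-y and Ppbp, whose log2 differences were 0.05, 0.16 and -0.38. Both sequences are printed because they carry this element in 2 of the genes that overshot, with the repeat in capitals (RefSeq, GRCm38.p6, 5′ to 3′ on the gene's strand). The Cyp26a1 window is chr19:37697558-37697807 on the plus strand and the Rarb window chr14:16575477-16575726 on the minus strand.
Cyp26a1: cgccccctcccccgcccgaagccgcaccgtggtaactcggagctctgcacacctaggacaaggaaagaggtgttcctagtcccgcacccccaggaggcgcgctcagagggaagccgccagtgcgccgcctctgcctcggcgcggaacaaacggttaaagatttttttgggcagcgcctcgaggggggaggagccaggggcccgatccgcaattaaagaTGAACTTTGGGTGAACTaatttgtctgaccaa
Rarb: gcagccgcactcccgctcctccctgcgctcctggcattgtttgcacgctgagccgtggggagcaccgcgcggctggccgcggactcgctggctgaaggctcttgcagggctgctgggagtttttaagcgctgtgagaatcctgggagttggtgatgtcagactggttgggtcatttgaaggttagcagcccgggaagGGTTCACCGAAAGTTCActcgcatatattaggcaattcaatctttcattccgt
The Cyp26a1 repeat reads on the opposite strand and ends 16 bases before the start, and the Rarb repeat lies on the gene's strand and ends 37 bases before it. A match is a description of the letters and not of binding, and a gene without one in this window may hold it elsewhere.

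Proximal limb genes differed in how near they came to the proximal control level. Of 12 listed, 11 were on the array and 10 measured; 0 were higher, 2 were lower and 8 lay within 2-fold, with a median log2 difference of -0.34 for the distal RA bud and -0.69 for the distal control. By the mean over probe sets the median in the distal RA bud was -0.62. Several of these genes, among them Shox2 and Tbx15, were alike in the control parts, so being within 2-fold is informative only for the 4 that differed there: Meis1, Meis2, Irx3 and Irx5. Meis2 had a signal of 2941 in the proximal control, 1094 in the distal control and 3411 in the distal RA bud. The RA bud was 3.12-fold above the distal control and 1.16-fold above the proximal control, and all 4 of its probe sets were on that side (log2 0.05 to 1.35). Meis1 had signals of 614, 202 and 397, about midway, 1.97-fold above the distal control and 1.55-fold below the proximal. Its probe sets disagreed on the side of the proximal control, with log2 differences of -0.63 and 0.57. Irx3, an Iroquois homeobox gene, had signals of 2018, 160 and 458, which left it 4.41-fold below the proximal control although 2.86-fold above the distal one. Irx5, its neighbour, had a signal of 251 in the proximal control and was at the floor in both distal buds, so it was at least 3.68-fold lower in the distal RA bud.

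**Figure D2:**
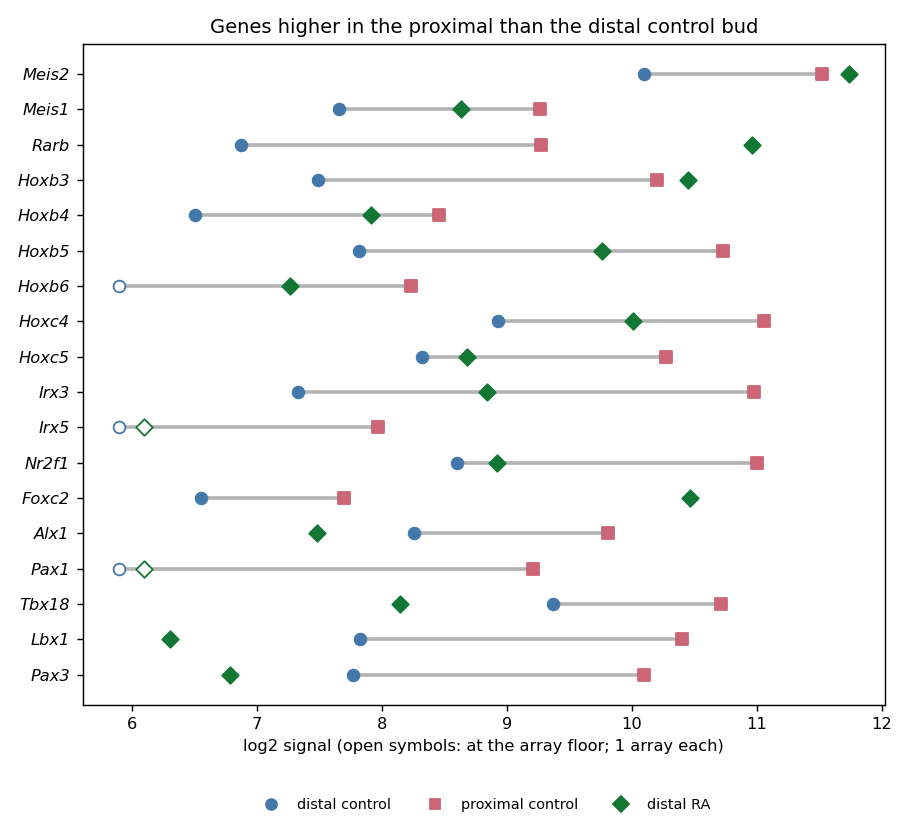
Log2 signal of 18 genes that were 2-fold or more higher in the proximal (red square) than the distal (blue circle) control bud, with the distal RA bud as a green diamond, 1 array each, and a grey line for the control gap. Meis2, Hoxb3, Rarb and Foxc2 lie at or past the proximal control, Hoxb4 to Hoxb6 and Hoxc4 in between, and Alx1, Tbx18, Lbx1 and Pax3 beyond the distal control on the far side.

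HoxB genes that were 2-fold higher in the proximal than in the distal control came nearer to the proximal level in the RA bud. Of 7 measured HoxB genes 0 differed 2-fold from the proximal control in either direction, with a median log2 difference of -0.55. In the distal control 4 of 7 were 2-fold lower than proximally, with a median of -1.96, and those 4 all came within 2-fold of the proximal level in the RA bud. Hoxb3 had a signal of 1179 in the proximal control, 179 in the distal control and 1402 in the distal RA bud, Hoxb4 had 352, 90.8 and 241, Hoxb5 had 1699, 226 and 867, and Hoxb6 had 300.1, 37.1 and 154. Hoxb3 thus stood near the proximal level, with probe sets at -0.28 and 0.25, while Hoxb5 and Hoxb6 stood just inside 2-fold below it, at 1.96-fold and 1.95-fold. After each array was divided by its median these 2 were just past 2-fold lower (log2 -1.06 and -1.06). Hoxb1 had a signal of 101 in the proximal control and was at the floor in both distal buds. With the floor at the 25th percentile it was just past 2-fold lower in the distal RA bud (log2 -1.01).

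Hoxc4 and Hoxc5 followed less far than Hoxb3 to Hoxb6, and most HoxA and HoxD genes had no 2-fold gap to close. In the distal control 2 of 8 measured HoxA genes were 2-fold lower than proximally. Of 7 measured HoxD genes 1 was higher there and 1 lower. Hoxc4 had signals of 2136, 487 and 1031 in the same order and Hoxc5 had 1240, 320 and 411, so they remained 2.07-fold and 3.02-fold below the proximal control. Hoxc8, a more 5′ gene that is higher distally, had signals of 414, 1083 and 873 and was 2.11-fold above the proximal control. These were the 3 of 5 measured HoxC genes at 2-fold. Hoxc8 was just under it after division by the array median (log2 0.98) and with an offset of 50 in place of the floor (0.99). Of 8 measured HoxA genes only Hoxa4 was 2-fold lower, with signals of 222 and 110 in the control parts and a value at the floor in the distal RA bud. That call depended on low values: with the floor at the 65th percentile its log2 difference was 0.010. Of 7 measured HoxD genes 0 were at 2-fold, including Hoxd3, which had signals of 273, 124 and 149, and Hoxd13, described with the distal genes.

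Anterior genes of the proximal bud were lower in the distal RA bud, whereas somite and body wall markers were mixed. Of 9 listed anterior limb genes 7 were on the array, of which Alx4, Pax9 and Hand1 were at the floor on both arrays compared. All 4 measured were lower than in the proximal control, with a median log2 difference of -2.23 against -2.69 in the distal control. These 4 were Irx3 and Irx5, which are also on the proximal limb list, with Alx1 and Pax1. With the floor at the 65th percentile Irx5 was under 2-fold (log2 -0.17). Alx1, an aristaless-type homeobox gene, had signals of 898 in the proximal control, 306 in the distal control and 179 in the distal RA bud, 5.02-fold below the proximal. Pax1, a paired-box gene of the sclerotome and shoulder region, had a signal of 591 proximally, was at the floor in both distal buds and was at least 8.67-fold lower. Of 7 measured somite and body wall markers 4 were lower and 1 higher, and 3 lay on the higher side. Their median log2 difference was -1.06, but -0.18 with the floor at the 25th percentile. Tbx18 had signals of 1678, 660 and 283, below both control parts, and Tcf15 had 773, 327 and 370. Meox2, a homeobox gene of muscle and mesenchyme, had signals of 1069, 1271 and 330, with both of its probe sets 2-fold or more lower. The gene that was higher was Foxc2, a forkhead gene of paraxial and limb mesenchyme, with signals of 207, 93.7 and 1412. It exceeded the proximal control 6.82-fold, and Foxc1 went the same way with 140, 58.6 and 235, as did Meox1 (log2 0.70).

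Migrating muscle precursors, which enter the bud from the somites, were read from a list of their markers, most of which were lower. In bulk tissue fewer cells of a type and less RNA per cell cannot be told apart. Of 6 measured markers 4 were lower and 1 higher, with a median log2 difference of -1.95 for the distal RA bud and -1.65 for the distal control. By the mean over probe sets the median in the distal RA bud was -0.74. Lbx1, the homeobox gene of these migrating cells, had signals of 1355, 227 and 79.0 in proximal control, distal control and distal RA bud. On this probe set it was 17.1-fold below the proximal control (log2 -4.10), and its other probe set read -1.32. Pax3, which marks the same lineage, had signals of 1096, 218 and 110.0, and its 3 probe sets ranged from -3.32 to -0.96. Met, the receptor needed for migration of these cells, had 1380, 732 and 434, although its mean over probe sets was under 2-fold (log2 -0.79). The distal RA bud was below both control parts for Lbx1, Pax3 and Met. Its summed signal over the 7 markers on the array was 912, against 1345 in the distal and 4321 in the proximal control. Eya1, a Pax3 partner in this lineage, had 321 and 102 and was at the floor in the distal RA bud. Pax7 was the exception, at the floor in both control parts and 151 in the distal RA bud. By the mean over probe sets Eya1 (log2 -0.68) and Pax7 (0.67) were under 2-fold.

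Distal signalling genes stayed above the proximal level but were mostly lower than in the untreated distal bud. Of 13 measured genes of the apical ectodermal ridge, 5 were 2-fold or more higher than in the proximal control and 0 lower, and all 13 were on the higher side, with a median log2 difference of 0.83 against 1.19 for the distal control. The ridge factor Fgf4 had signals of 92.7, 2141 and 1431 in proximal control, distal control and distal RA bud. It thus kept a 15.4-fold excess over proximal tissue, on all 3 probe sets above the floor. Fgf8, the main ridge factor, was at the floor proximally and had signals of 238 and 137 in the distal control and distal RA bud. Sp8, a zinc finger factor of the ridge, had signals of 604, 1550 and 1078, Dlx5 was at the floor proximally and had 246 and 112, and Dlx2 had 433, 1054 and 882. Fgf9 and Dlx3 were also at 2-fold, with 206 and 644 in the distal RA bud against 98.5 and 320 in the proximal control, but along with Dlx2 they were under it after division by the array median. By the mean over probe sets Fgf9 (log2 0.58) and Dlx3 (0.55) were under it too. After quantile normalization Fgf8 (0.97) and Fgf9 (0.997) were just under 2-fold. In the comparison of the distal RA bud with the distal control 2.16% of 11389 genes were 2-fold or more higher and 2.13% lower. Of the ridge genes, 11 of the 14 ridge genes measured there were lower than in the distal control, 1 of them, Dlx5, by 2-fold or more. Surface ectoderm markers moved with this group: their median was 0.34 above the proximal control against 0.75 in the distal control, 1 of 15 was 2-fold higher, Tfap2c, and 0 lower. Their summed signal was 17530 in the proximal control, 28101 in the distal control and 23921 in the distal RA bud. Whether the amount of ectoderm in the dissected part bears on the ridge genes was not tested.

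**Figure D3:**
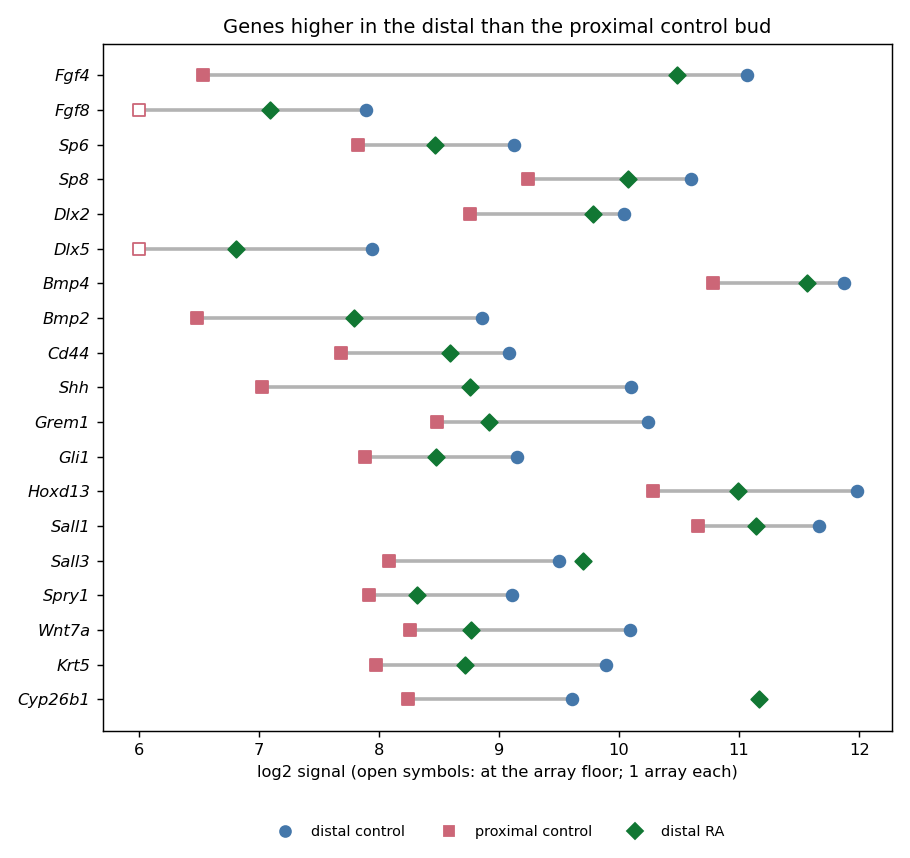
Log2 signal of 19 genes that were 2-fold or more higher in the distal (blue circle) than the proximal (red square) control bud, with the distal RA bud as a green diamond, 1 array each. The diamond lies between the control parts for all but Sall3 and Cyp26b1, near the distal end for Fgf4 and Dlx2 and near the proximal end for Grem1 and Wnt7a.

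Shh, Grem1 and Gli1, the 3 genes of this list 2-fold higher distally in control, lay between the control parts. Others, among them Ptch1, Tbx2 and Tbx3, lay above both. Shh, the signal of the posterior margin, had a signal of 130.1 in the proximal control, 1099 in the distal control and 433 in the distal RA bud. It was 2.54-fold below the distal control and 3.33-fold above the proximal one. The excess over the proximal control was under 2-fold with the floor at the 65th percentile (log2 0.98) and by the mean over probe sets (0.91). Grem1, a BMP antagonist that keeps the ridge active, had signals of 357, 1208 and 483, within 2-fold of the proximal control. Gli1, a transcriptional target of SHH, had 236, 568 and 356, whereas Ptch1, another target, had 3618, 5253 and 5567 and was not lower than in the distal control. In the list of 11 measured SHH pathway and posterior genes 2 were 2-fold above the proximal control, Shh and Tbx2, and 0 below. The median log2 difference was 0.50, against 0.36 over the 10 measured in the distal control. These medians do not measure nearness, since they include genes that were not distal in control, such as Tbx2 and Tbx3. Tbx3 had signals of 2413, 2502 and 4679. Tbx2, a T-box repressor, was higher in the distal RA bud (456) than in either control part (219 and 139), and was just under 2-fold above the proximal control after division by the array median (log2 0.97).

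Distal mesenchymal factors showed both behaviours. Of 17 measured distal limb genes 2 were 2-fold above the proximal control, Cyp26b1 and Sall3, and 0 below, with a median of 0.21 against 0.52 in the distal control. Hoxd13, the digit-forming Hox gene, had signals of 1247, 4035 and 2037 in proximal control, distal control and distal RA bud, so it covered most of the way to the proximal level. Sall3, a spalt-type zinc finger gene, had signals of 272, 724 and 833 and stayed distal. Sall1 had 1616, 3244 and 2252. FGF response genes, which report signalling from the ridge, had 0 of 12 at 2-fold and a median of 0.12: Spry1 had signals of 242, 553 and 318, and Dusp6 had 2889, 3351 and 3518. In the same comparison Bmp2 had signals of 89.7, 464 and 222, and was the 1 of 16 measured BMP pathway genes that was higher. The 1 that was lower was Bmpr1b, a BMP receptor, with 445 proximally, 103 distally and a value at the floor in the RA bud. By the mean over probe sets Bmpr1b was under 2-fold (log2 -0.84). Of 20 measured WNT pathway genes 0 were higher and 1 was lower: Sfrp1, a secreted WNT inhibitor of the proximal bud, had signals of 2016, 392 and 377 and showed no approach to the proximal level.

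**Figure D4:**
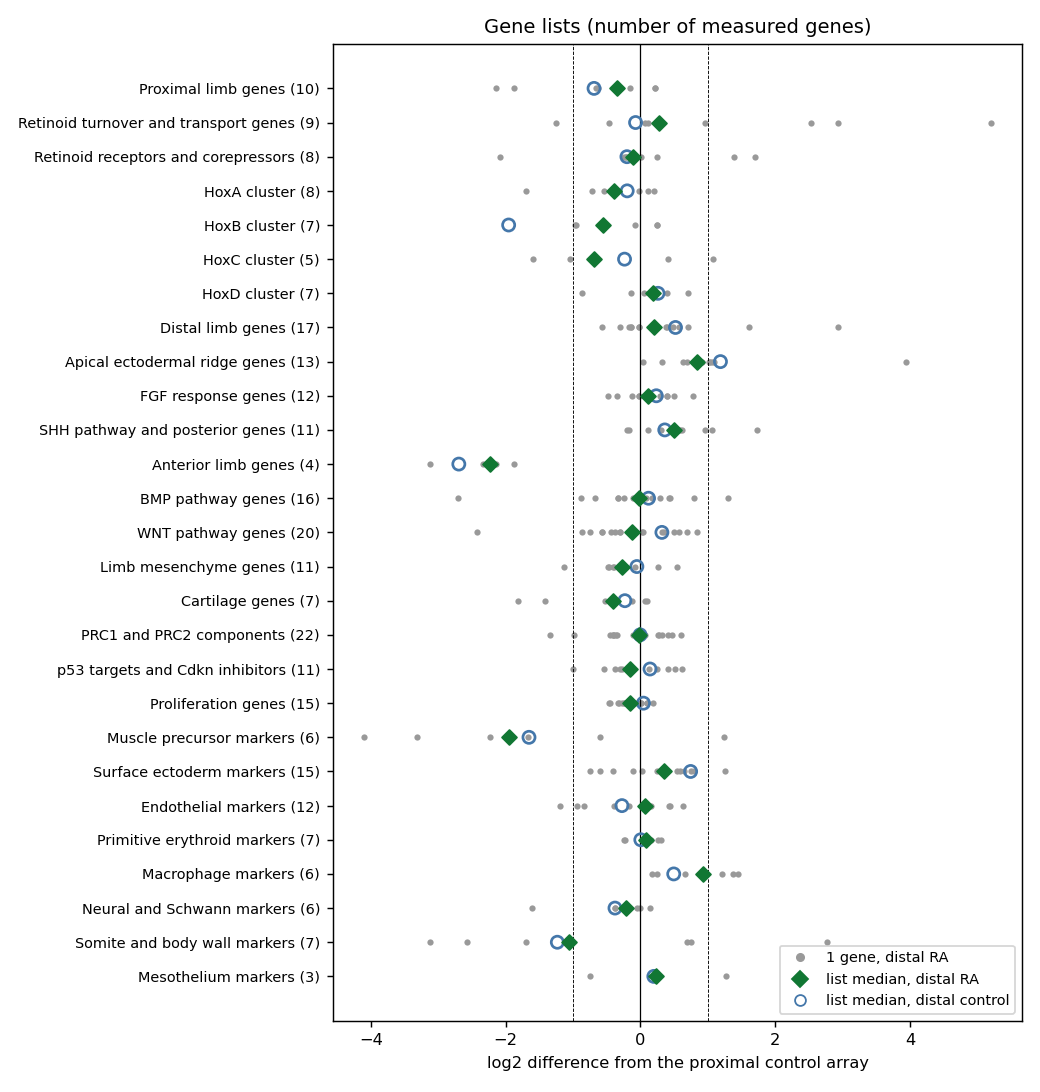
Log2 difference from the proximal control array for the measured genes of 27 lists (grey, distal RA bud), with the list median in the distal RA bud (green diamond) and in the distal control (blue ring), 1 array each. Dashed lines mark 2-fold. The HoxB median moved from -1.96 to -0.55, while in the distal RA bud the anterior limb median was -2.23 and the muscle precursor median -1.95.

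The same question was put to every gene that was 2-fold different between the control parts. Since the choice used the proximal control array, which is also the level to be reached, the counts are a description. Of the 154 proximal genes, 64 (41.6%) were within 2-fold of the proximal control in the distal RA bud, 82 were still 2-fold or more short and 8 were 2-fold past it. On a scale where 0% is the distal and 100% the proximal control, their median position was 19.1%, with quartiles from -8.00% to 67.2%. A gene at the floor in both distal buds has a position set by the floors alone. Of the 159 distal genes, 108 (67.9%) were within 2-fold of the proximal level, 50 were still higher and 1 was past it, and the median position was 49.6%. Over the 105 proximal and 126 distal genes above the floor on all 3 arrays the median positions were 35.4%, with quartiles from -21.7% to 72.8%, and 42.3%. After division by the array median the positions were 7.88% and 61.2%. Single proximal genes were thus spread from no approach to full approach, and how the medians of proximal and distal genes compare depended on the genes kept and on the scaling.

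Of the 10 genes most proximal in control, Hoxb3 and Hoxb5 were the ones within 2-fold of the proximal control. Fap, a serine protease of mesenchymal cells, had signals of 634, 65.4 and 78.3 in proximal control, distal control and distal RA bud, and Gsc, a homeobox gene, had 377 proximally and was at the floor in both distal buds. Sim2, Tac1 and Mup10 were also 2-fold or more short, as were Irx3, Pax1 and Lbx1. With the floor at the 65th percentile Gsc (log2 -0.75) and Tac1 (-0.70) were under 2-fold. Of the 10 most distal genes Gja3, a gap junction gene, came to the proximal level, with signals of 336, 1300.1 and 306. The other 9 stayed 2-fold or more above it: Tent5a, Cntn2 and Fam20c with Fgf4, Shh and Bmp2 between the control parts, and Rcsd1, Ppp2r2c and Srms above the distal control. By the mean over probe sets Rcsd1 (log2 0.82), Cntn2 (0.84) and Fam20c (0.82) were under 2-fold.

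A choice of genes that used neither array compared was made on the dKO pair. Of 60 genes 2-fold proximal there (0.515% of 11642), 53 were above the floor on at least 1 of the 3 arrays compared. Their median log2 difference from the proximal control was -1.14 in the distal control and -1.01 in the distal RA bud, and 29 and 27 of them were 2-fold or more lower. Without members of the muscle precursor and the somite and body wall lists the medians were -1.07 and -0.94. Of 84 genes 2-fold distal in dKO (0.722%), 79 were measured, and their median was 0.96 in the distal control and 0.39 in the distal RA bud, with 37 and 18 of them 2-fold or more higher. These medians compare with -0.03 over all genes for the distal RA bud and 0.00 for the distal control. On genes chosen this way the distal RA bud was closer to the proximal control for distal genes. Of these 46 lay nearer to the proximal and 33 nearer to the distal control. The distal set holds surface ectoderm markers, among them Krt5 and Krt14. The summed signal of the surface ectoderm list was 28101 in the distal control and 23921 in the distal RA bud. Whether the amount of ectoderm bears on the distal set was not tested. Of the proximal genes 18 lay nearer to the proximal and 35 nearer to the distal control. The median of their log2 differences between the distal RA bud and the distal control was 0.20. A gene at the floor in both takes that same value from the floors alone. An approach of proximal genes as a group therefore cannot be read from these medians. Meis2 and the HoxB genes are not among the genes chosen this way.

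**Figure D5:**
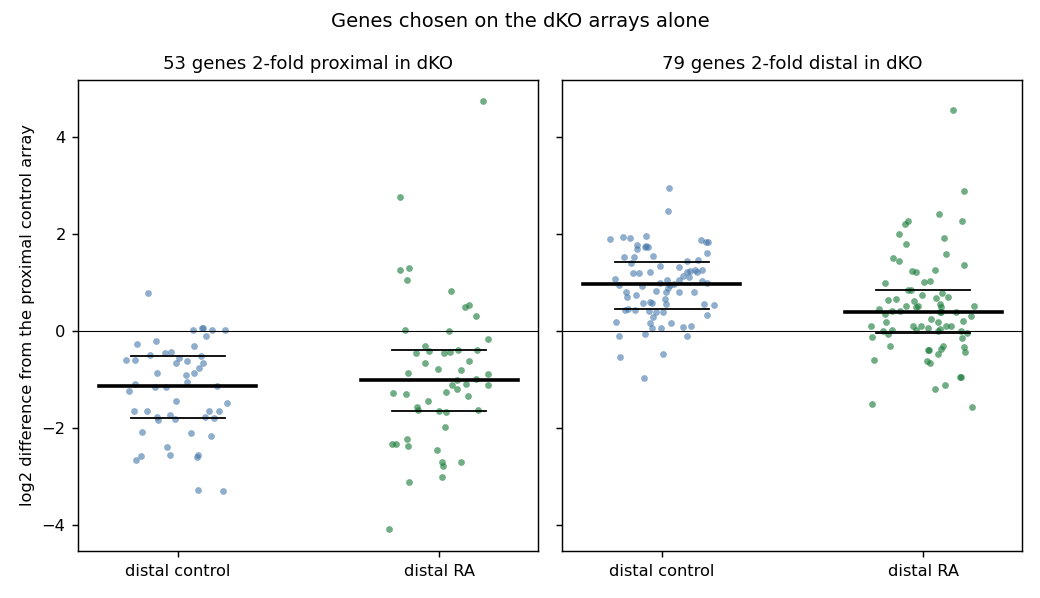
Log2 difference from the proximal control array for 53 genes that were 2-fold proximal (left) and 79 that were 2-fold distal (right) in the dKO pair, in the distal control (blue) and the distal RA bud (green), 1 point a gene and 1 array a condition. Thick lines are medians and thin lines quartiles: -1.14 and -1.01 on the left, 0.96 and 0.39 on the right.

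Some genes lay outside the range of the control parts altogether. Of the 250 genes above the proximal control, 149 were also 2-fold or more above the distal control, and 119 of the 314 lower genes were 2-fold or more below it; both counts share the RA array. The sex-linked Xist and Eif2s3y, given above, had the largest differences and are left out of what follows. The 12 next largest excesses over the proximal control, among genes with no probe set 2-fold the opposite way, included, besides Cyp26a1, Cyp26b1 and Fgf4, Csn3, a milk casein gene, with signals of 88.2 in the proximal control, 14.5 in the distal control and 2366 in the distal RA bud. Prap1 had 104, 239 and 2442, Gm8350 had 116, 201 and 1612, and Cygb, a globin of connective tissue, was at least 11.2-fold higher with 716. Skor1, a transcriptional corepressor, was at least 10.6-fold higher with 678, and Tmem87a at least 19.0-fold with 1217. Among the 12 next largest deficits were Eya4, a transcriptional cofactor, with 1111, 237 and 113, Itm2a with 1870.1, 629 and 215, Ovca2 with 634, 182 and 91.7, and Crym, a thyroid hormone binding protein, with 509, 214 and 75.3. Ctr9, a subunit of the PAF1 complex, had 3254 in both control parts and 511 in the distal RA bud, but the mean over its probe sets differed by less than 2-fold (log2 -0.53). The non-coding Eldr was at the floor in the distal RA bud against 433 and 462.

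Outside patterning, the lists of proliferation genes, p53 target and Cdkn genes and PRC1 and PRC2 components differed little. Of 15 proliferation genes and 11 p53 target and Cdkn genes 0 were at 2-fold, with medians of -0.16 for both lists. Among 22 measured PRC1 and PRC2 components only Ring1, which encodes RING1A, was at 2-fold, and it was lower in the distal RA bud labelled wild type (245) than in the proximal control labelled Ring1A-/- (624). The position of its probe set relative to the deletion is unknown here, so this value checks no label. Of 11 measured limb mesenchyme genes 1 was lower, Pdgfra (4433 and 2019), and of 7 cartilage genes 2 were lower, Sox6 (563 and 212) and Scx, a tendon gene at 240 proximally and at the floor in the distal RA bud. By the mean over probe sets Pdgfra (log2 -0.67), Sox6 (-0.74) and Scx (-0.86) were under 2-fold. Markers of other cells were read beside these. Endothelial genes had 1 of 12 lower, Tek, and 0 higher, with a median of 0.06, and primitive erythroid genes had 0 of 7 at 2-fold. Neural and Schwann markers had 1 of 6 lower, Stmn2, and Sox10, Elavl3, Foxd3 and Isl1 were at the floor on both arrays. Macrophage markers had 3 of 6 higher, Csf1r, Fcgr3 and Lyz2, all at signals under 300 in the distal RA bud, and a median of 0.93, while Adgre1 and Cx3cr1 were at the floor on both arrays. The macrophage median was 1.41 with the floor at the 25th percentile and 0.18 at the 65th, where Csf1r was at log2 0.27. With an offset of 50 in place of the floor Fcgr3 and Lyz2 were just under 2-fold (both log2 0.99). By the mean over probe sets Csf1r (log2 0.89) and Stmn2 (-0.76) were under 2-fold. Of 3 measured mesothelium markers 1 was higher, Wt1, which was at the floor in both control parts and had 154 in the distal RA bud. The part of these cells in the differences above was not tested.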

How the data were processed

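One-colour Affymetrix arrays were analysed, 1 per part and condition. The authors deposited linear signal intensities, made with MAS5 per the submitters' processing notes; its version and detection calls are not given in the sources used here. The mean of every array without the lowest and highest 2% of probe sets was 500, as read from the values. Of 45101 probe sets 64 were controls, 34958 had 1 gene symbol, 932 several and 9211 none listed; 34754 gene IDs matched RefSeq. Each of 18193 genes was read from 1 probe set, that of the largest log2 signal averaged over the 6 arrays. Signals were floored at the array median and log2 taken, and a gene was measured in a comparison when above the floor on 1 of its arrays. No test was made, since each group is 1 array, and the number of arrays limits the precision. The computation was tested on simulated data. The genes named are the 12 largest differences each way without a probe set 2-fold the opposite way and with sex-linked genes named apart, list members at 2-fold, members of the proximal, HoxB, retinoid, ridge, distal and SHH lists that differ between the control parts, and the 10 largest control differences each way; others were named for contrast after their values were seen. Members and lists were chosen with earlier results of these data known. Tools were Python 3.11.15, pandas 2.3.3 and numpy 2.4.6.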

Additional observations from a re-analysis of the deposited data

How the results depend on the processing

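No paired analysis was possible because each group is 1 array. The alternatives were 3 floors or offsets, 2 scalings, the mean over probe sets and a 3-fold threshold, and 1 set left out list markers (chosen after seeing the data). Of 2133 recomputed values of single genes and of smaller lists 2052 kept their side of 2-fold or, for lists, moved little, 50 were then under 2-fold, 20 past it, 8 list medians moved and 3 reversed. The reversals were Hoxa4 (0.010) and the mesothelium median (-0.74) with the floor at the 65th percentile, and that median (-0.50) with the floor at the 25th. With the floor at the 25th percentile 754 genes were higher and 678 lower, 54.9% of proximal genes came within 2-fold (median position 37.2%), the genes proximal in dKO had medians of -0.39 in the distal RA bud and -0.60 in the distal control, the distal ones 0.66 in the distal control, and the HoxB, HoxC and somite medians were -0.32, -1.05 and -0.18. With the floor at the 65th percentile 110 genes were higher and 153 lower, 78.1% of distal genes came within 2-fold, genes proximal in dKO had -0.76 in the distal control, and the retinoid and anterior medians were 0.96 and -1.71. With log2(signal + 50) the distal share was 79.3%, the muscle median -1.68 and the distal RA median of genes proximal in dKO -1.26. With the mean of all probe sets 166 genes were higher and 177 lower, and the proximal limb, HoxB, HoxC, anterior and muscle medians were -0.62, -0.23, -0.38, -1.70 and -0.74. At 3-fold 80 genes were higher and 87 lower, and genes chosen on dKO had medians of -2.37 and -2.41 (proximal) and 0.092 and 1.22 (distal) in the distal RA bud and the distal control. After division by the array median the positions were 7.88% and 61.2% and the distal control median of genes proximal in dKO was -0.86, and after quantile normalization -0.91. Causes were not tested beyond the fewer or more genes each setting measures. Signal over background limits genes near the floor, such as Irx5, Shh, Eya1 and Bmpr1b, which were under 2-fold with the 65th percentile floor.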

Other observations

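Proximal genes outside the fixed lists that came within 2-fold of the proximal control included secreted factors and SHH co-receptors. They were picked after their values were seen. Igf1, a growth factor, had signals of 439 in the proximal control, 102 in the distal control and 459 in the distal RA bud, and Hgf, the ligand of the MET receptor, had 379, 173 and 498. Foxp2, a forkhead gene, had 382, 103 and 440.3, and Pth1r, the parathyroid hormone receptor, had 2646, 1029.9 and 2494. The SHH co-receptors Cdon (1400, 327 and 889), Boc (2098, 950.2 and 1824) and Gas1 (2610, 1287 and 2149) were each within 2-fold of the proximal control. Ngfr, the low-affinity neurotrophin receptor, overshot it, with 337, 166 and 1613, although the mean over its probe sets was under 2-fold (log2 0.89). Among distal genes, the smooth muscle genes Tagln (74.6, 256 and 70.5) and Acta2 (57.8, 238 and 32.8) were at or near the floor in the distal RA bud as in the proximal control.

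A small group differed between the RA arrays and the control arrays in both parts alike: 10 genes were 4-fold or more higher and 2 lower on both RA arrays than on both control arrays, with the parts within 2-fold of each other, leaving out the sex-linked Eif2s3y and Xist, which met the same rule. Besides Cyp26a1 and Dhrs3, D2hgdh had signals of 392 and 429 in the control parts and 3018 and 2453 in the proximal and distal RA bud, Stk25 had 112 and 132 against 882 and 761, and Zfp874a had 4.49 and 7.97 against 591 and 403. Tmem87a, Cygb, Nxph4, Rab37 and Rsl1 were the other genes higher. Adi1 was lower, with 1626 and 1646 against 168 and 284, as was Eldr. On both RA arrays the genotype label, the sex-linked RNAs (Xist 12.9 and 29.5 against 3688 and 3017 in the control parts) and the BioB spike-in (middle probe set 135 and 165 against 1343 and 1437) also differ from the control arrays, and these cannot be told apart from RA exposure.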
